A study of Bos taurus with 8 samples.

Results

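Olfactory receptor genes were examined in methylated-DNA pull-down libraries of bovine skin cells. The genes were found by their symbols: on chromosomes 1 to 29, a 3Kb window of the genome belonged to the family when the gene name it carried had the form OR, a family number, a subfamily letter and a member number, as in OR6Q1. This gave 660 windows of the 837275 on these chromosomes (902984 windows in all) and 204 genes of 23986 named there. A further window on chromosome X (1) and another on an unplaced scaffold (1) were left out. No measured value entered this rule, though the family was chosen with earlier results of these data known.

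The data came from un-treated dermal fibroblast cultures, grown from the skin of 4 Holstein and 4 Angus heifers of the same age and used at passage 5, with 1 library per animal. Holstein is a dairy breed and Angus a beef breed, and the cultures are called Holstein 1 to 4 and Angus 1 to 4 after their labels. In MIRA-Seq, sheared genomic DNA is incubated with methyl-CpG binding proteins and the captured fragments are sequenced, so the read count of a window grows with the number of its methylated CpG sites. The comparison the samples allow is that of the breeds, and the levels of the receptor windows can be set beside those of other windows of the same libraries. A culture represents the cells that grew out of 1 animal's skin, and DNA counts hold no marker transcripts by which the cell type could be checked.

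Olfactory receptors are G-protein coupled receptors that bind odorants on the cilia of olfactory sensory neurons. Each such neuron expresses a single receptor gene chosen from the whole repertoire, and most other cell types keep the family silent. The genes lie in tandem clusters on many chromosomes, their coding sequence usually fits in a single exon, and a cluster is built from copies of a few ancestors. They are divided into class I (families 51 to 56), which resemble the receptors of fish, and class II (families 1 to 14), which expanded in land vertebrates.

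The 204 genes lay on 17 chromosomes. Chromosome 15 held 71 genes in 174 windows and chromosome 7 held 35 genes in 166 windows. Chromosome 10 followed with 17 genes, chromosome 5 with 12, and chromosomes 3, 11 and 23 with 11 each. The annotated genes differed greatly in extent: 118 genes touched 1 window, 63 touched 2 or 3, and 23 touched more than 3. Those 23 long gene models held 413 of the 660 windows, so a mean over windows was weighted towards them. The longest were OR2T4 on chromosome 7 with 94 windows, OR6C68 on chromosome 5 with 79 and OR10J3 on chromosome 3 with 44. A coding exon was present in 292 windows and absent from 368.

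The symbols were checked against a RefSeq table of a later cattle assembly. Of the 204 symbols, 155 were current there, 36 were listed as a synonym of another symbol and 13 were not matched. The matched genes comprised 186 protein-coding genes and 5 pseudogenes. Most cattle olfactory receptor genes carried a LOC number rather than a symbol in the files: 1192 such genes in 2023 windows were given an olfactory receptor symbol by the table when matched on the gene number, so the genes with a symbol made up 14.6% of the receptor genes recognised in the files. Because the family consists of close copies, reads can match several members. How the aligner placed such reads was not given in the sources used here, and the value of a single gene may include reads of a near-identical copy.

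Read depth was low in these windows. The counts over all windows summed to between 18691111 and 35525554 reads per library, and the receptor windows held 0.0150 to 0.0259% of them. Values are given as CPM, the reads in a window per 1000000 reads counted in all windows of that library. The median receptor window held 42 reads over the 8 libraries together, and the median within a library was between 2 and 8 reads. A count of 0 allows up to 3 reads, or 0.0844 to 0.161 CPM depending on the library, a limit that covers counting error only. In 41 windows no library had more than 3 reads, and 1 window had no read in any library. Holstein 1 and Angus 3 had the lowest scaling factors by TMM, edgeR's normalization for libraries of different composition (0.817 and 0.677, against 0.952 to 1.22 in the other 6), and the smallest shares of reads on chromosomes 1 to 29 (78.3% and 72.5%). Their part in the results was not tested, and values without them are given where they bear on a result.

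Olfactory receptor windows yielded few reads. The mean over the 660 windows was 0.236, 0.392, 0.334 and 0.351 CPM in Holstein 1 to 4, and 0.363, 0.331, 0.228 and 0.279 CPM in Angus 1 to 4. The values of the breeds overlapped, and the lowest library of each breed was Holstein 1 and Angus 3. The mean over libraries was 0.314 ± 0.0602 CPM (SD, n = 8), while all windows of chromosomes 1 to 29 had 0.979 ± 0.0559 CPM and the 1127 other genes with a symbol that touched 1 window had 1.56 ± 0.249 CPM. The receptor windows were the lower in 8 of 8 libraries in both comparisons. The ratio to all windows was 0.319 ± 0.0488 by the mean and 0.701 ± 0.0929 by the median window, and the ratio to the other genes of 1 window was 0.203 ± 0.0312 by the mean. The mean of all windows included windows of up to 9002 CPM, which were not left out.

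The distribution was shifted as well as the mean. The median of the window means (each averaged over 8 libraries) was 0.194 CPM for the receptors, with quartiles of 0.112 and 0.346 CPM, against 0.292 CPM for all windows of chromosomes 1 to 29. The level from which the breeds were compared (1 CPM or more in 4 or more libraries) was reached by 29 of 660 receptor windows (4.39%). The same level was reached by 13.2% of all windows on these chromosomes and by 48.4% of the other genes of 1 window.

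The windows around the genes were similarly low. Neighbours were defined as the windows within 10 windows on either side of a receptor window that carried no receptor symbol. The 3031 neighbours had a median of 0.177 CPM and a mean of 0.336 ± 0.0575 CPM (SD, n = 8). They included 491 windows of receptor genes with LOC names, whose median was 0.225 CPM, and 2174 windows without a gene name, whose median was 0.161 CPM. The ratio of the receptor mean to the neighbour mean was 0.933 ± 0.0521 and ranged from 0.870 to 1.01 over the libraries. The mean of the neighbours rested on 4 windows over 10 CPM. The highest, on chromosome 28 (UMD v3.1, chr28:2546765-2549764, no gene name), had 149.9 CPM and a read stack of up to 5691 at a single base. Without these 4 windows, a choice made after seeing the data, the neighbours had 0.269 ± 0.0651 CPM and the ratio was 1.18 ± 0.0700, with the receptors higher in 8 of 8 libraries. The direction of this comparison therefore depended on those windows and on the windows counted: with 30 windows on either side the ratio was 0.442, and with the median window in place of the mean it was 1.10.

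Within the gene models, the coding part stood out on average. Receptor windows with a coding exon had 0.355, 0.540, 0.484 and 0.484 CPM in Holstein 1 to 4 and 0.485, 0.474, 0.336 and 0.416 CPM in Angus 1 to 4. Receptor windows without a coding exon had 0.141, 0.275, 0.215 and 0.245 CPM in Holstein 1 to 4 and 0.266, 0.218, 0.142 and 0.171 CPM in Angus 1 to 4. Coding windows were higher in each of the 8 libraries, and the 2 ranges did not overlap. The ratio was 2.19 ± 0.248 (SD, n = 8) by the mean and 1.56 ± 0.126 by the median window. Relative to neighbours of up to 10 CPM, the coding windows were 1.7 ± 0.168 times as high and the windows without a coding exon 0.777 ± 0.0213 times as high. Among the 23 long gene models alone, the 48 coding windows again exceeded the 365 others in 8 of 8 libraries, with a ratio of 1.44 ± 0.0978. The 365 others came from 22 of these models. The remaining model, OR8G5, had 4 windows, all coding, spread between positions 27297519 and 27906818 of chromosome 29. The contrast did not hold in every long model. In OR9K2 the coding window had 0.0873 CPM, against 0.266 CPM over all 36 windows of the model. In OR10J3 the values were 0.460 and 0.222 CPM. The CpG content of the windows was not computed, because no genome of this build was used here, so a higher density of CpG and a higher share of methylated CpG cannot be told apart. The part of reads from near-identical copies in this contrast was not tested.

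**Figure D1:**
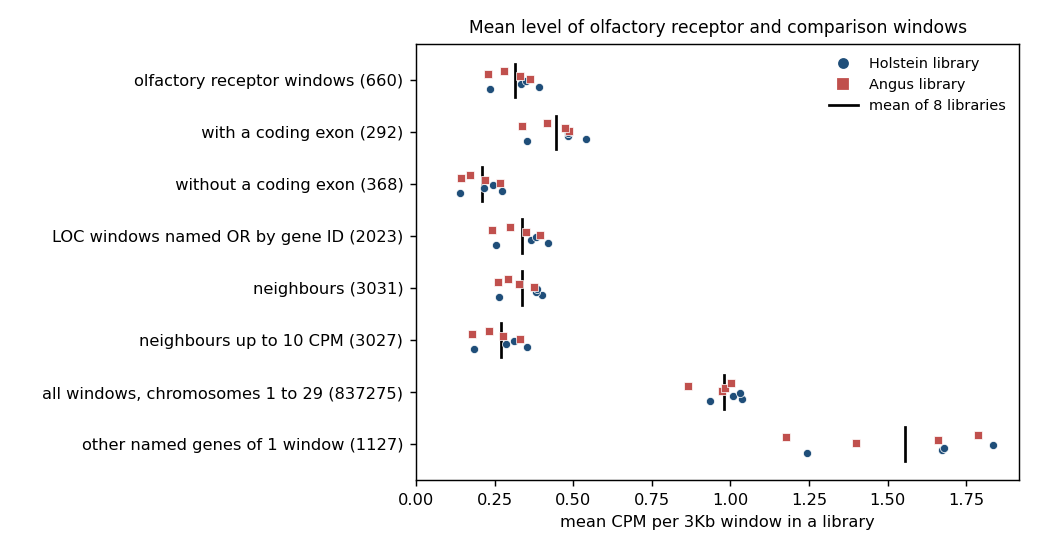
Mean CPM per 3Kb window (horizontal axis) in each library for receptor windows and comparison windows, with the number of windows in brackets. Circles are Holstein libraries, squares Angus libraries and vertical bars the mean of 8 libraries; receptor windows lie between 0.228 and 0.392 CPM, below every library's value for all windows and for other genes of 1 window.

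The position of the reads was examined around the 118 receptor genes that touched a single window. That window had 0.507 ± 0.0755 CPM (SD, n = 8) on average over genes, and the 2 windows next to it had 0.203 ± 0.0528 CPM. The ratio was 2.58 ± 0.381 and lay between 2.09 and 3.21 in the 8 libraries. Of the 118 genes, 93 (78.8%) were above the mean of their 2 flanks when averaged over libraries, 46 were above in every library and 3 were below in every library. By the median gene, the level went from 0.132 CPM in the window before the gene's window to 0.293 CPM in it and 0.156 CPM in the window after, with the genes turned to run from left to right.

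The same peak was seen over receptor genes with LOC names. The 703 of them that touched 1 window had a ratio to their flanks of 1.60 ± 0.153 and were above the flanks in 512 cases (72.8%). The other 1127 genes of 1 window had a ratio of 1.25 ± 0.0351 and were above their flanks in 627 cases (55.6%). The ratio was larger for the named receptors than for the other genes in each of the 8 libraries, since their ranges (2.09 to 3.21 and 1.20 to 1.30) did not overlap. In level the order was the opposite, with a ratio of receptor genes to other genes of 0.329 ± 0.0398 by the mean.

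**Figure D2:**
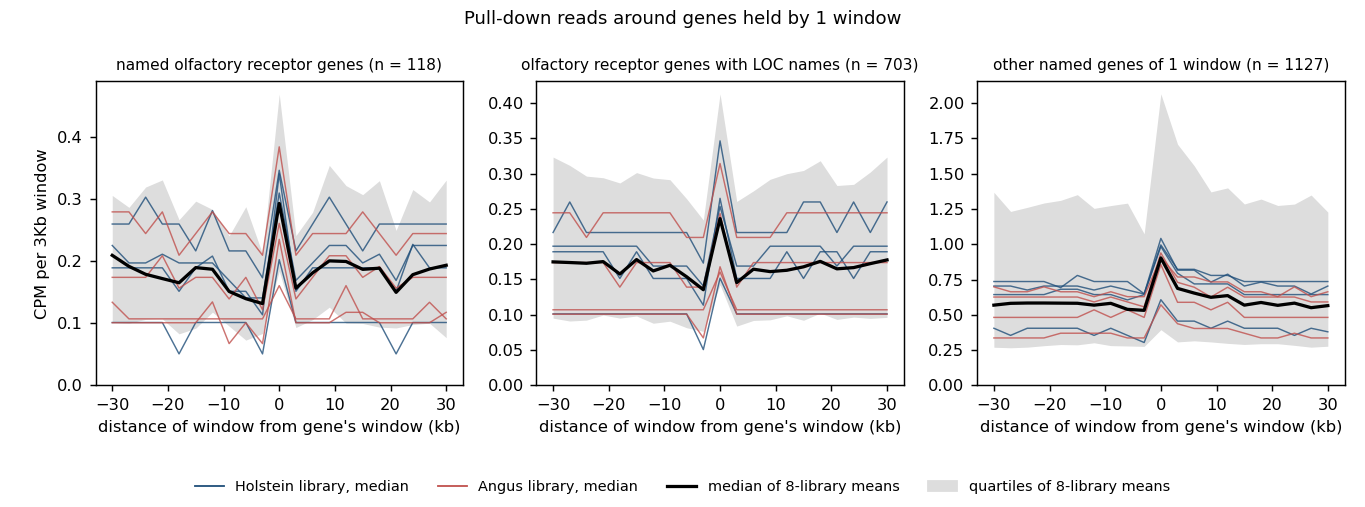
CPM per 3Kb window (vertical axes, which differ in range) against the distance in kb from the window that holds the gene, for named receptor genes, receptor genes with LOC names and other named genes of 1 window. Thin lines are medians over genes in each library, the black line is the median of 8-library means and the grey band spans its quartiles; the receptor median rises from 0.132 to 0.293 CPM at the gene and falls back to 0.156 CPM within 1 window.

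The highest receptor window was that of OR6Q1, a class II gene on chromosome 15 (UMD v3.1, chr15:82560257-82563256, plus strand, coding exon in the window). It had 4.10, 5.63, 5.60 and 5.38 CPM in Holstein 1 to 4 and 3.63, 5.18, 5.51 and 6.37 CPM in Angus 1 to 4, with 1086 reads in all and at most 38 reads over a single base. The breeds overlapped and had equal means of 5.17 ± 0.728 and 5.17 ± 1.14 CPM (SD, n = 4 each). A level this far above the family's median of 0.194 CPM was reached in each of the 8 libraries. A nearby window without a gene name (chr15:82554257-82557256) was higher still, with 10.2 CPM and at most 140 reads over a single base.

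The window of OR10S1 on chromosome 29 (chr29:27015519-27018518) came next with 4.28 ± 0.363 CPM in the Holstein and 3.65 ± 0.900 CPM in the Angus libraries. OR9Q2 and OR10V1, both on chromosome 15, had 3.62 and 3.48 CPM over the 8 libraries, and OR5A1, on the same chromosome, had 3.25 CPM. OR5A1 encodes the receptor for beta-ionone, a violet-scented odorant, in humans. OR1K1 and OR5C1, whose windows start 9 kb apart on chromosome 11, had 3.01 and 2.49 CPM. The list of the 10 highest windows was completed by OR4D9 (2.40 CPM), OR4D11 (2.39 CPM) and a window of OR9K2 on chromosome 5 (chr5:60084606-60087605, 2.21 CPM). The OR9K2 window was the only one of these 10 without a coding exon. It belonged to a gene model of 36 windows, whose lowest windows were among the emptiest of the family.

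**Figure D3:**
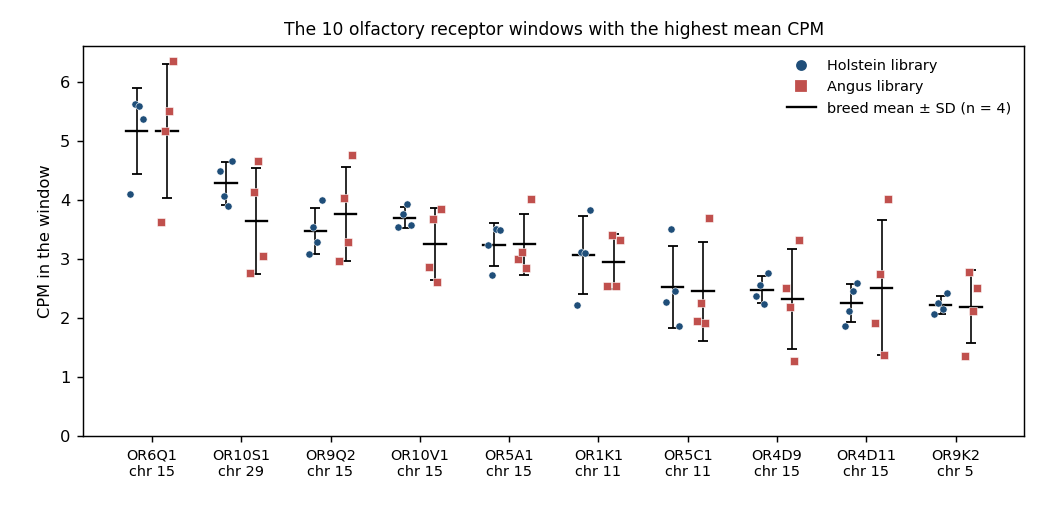
CPM (vertical axis) in each library for the 10 receptor windows with the highest mean, ordered from left to right by that mean. Circles are Holstein and squares Angus libraries, and bars with whiskers are the mean ± SD of 4 libraries; the breeds overlap in each of the 10 windows, and OR6Q1 ranges from 3.63 to 6.37 CPM.

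The 5 lowest windows lay in long gene models, outside their coding exons. A window of OR6C68 (chr5:58764606-58767605) had 0 reads in 8 of 8 libraries. Taken singly, a count of 0 allows up to 3 reads in its library, and the 8 counts together allow less. Windows of OR9K2 (chr5:60051606-60054605) and OR10A4 (chr15:46454657-46457656) had 2 reads each over the 8 libraries. Windows of OR2T4 (chr7:43537046-43540045) and OR9K2 (chr5:60042606-60045605) had 3 reads each. At this depth these windows cannot be ordered among themselves. Contrasts between adjacent windows were large in 2 of these models: the window next to the low OR10A4 window (chr15:46457657-46460656) had 1.00 CPM, and that next to the low OR9K2 window (chr5:60054606-60057605) had 1.24 CPM.

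The levels differed by place. Receptor windows separated by at most 1 Mb were joined, and the 20 clusters with at least 3 genes held 186 genes and 638 windows. Cluster means ran from 0.110 CPM on chromosome 8 to 1.90 CPM on chromosome 15, with each value a mean over windows and 8 libraries. The highest cluster held 5 genes in 8 windows (chr15:83979657-84240656). It had 1.73, 1.95, 1.99 and 2.05 CPM in Holstein 1 to 4 and 1.75, 1.97, 1.30 and 2.44 CPM in Angus 1 to 4, so every library of this cluster exceeded every library of each other cluster. Its members were OR5A1, OR4D6, OR4D9, OR4D11 and OR10V1, and its lowest window, also of OR5A1, had 0.720 CPM. Its neighbours had 0.823 CPM, against 0.336 CPM over the neighbours of all receptor windows.

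Next came a small cluster on chromosome 7 (chr7:8268446-9234445) with 0.763 ± 0.0890 CPM (SD, n = 8), and ran from 0.200 CPM in OR7C2 to 2.01 CPM in OR10H1. The cluster of OR6Q1 (chr15:82560257-82950456) had 0.650 ± 0.0937 CPM and ran from 5.17 CPM in OR6Q1 to 0.0642 CPM in a window of OR5B2, a gene model of 23 windows. These 2 clusters overlapped in their library values (0.657 to 0.910 and 0.489 to 0.737 CPM). The cluster on chromosome 11, with 11 genes, had 0.606 ± 0.115 CPM between 0.114 CPM in OR1J4 and 3.01 CPM in OR1K1.

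The 5 genes on chromosome 4 had 0.583 ± 0.0791 CPM, from 0.106 CPM in OR2A25 to 1.81 CPM in OR6B1. The 8 genes on chromosome 29 had 0.525 ± 0.0681 CPM, from 0.0426 CPM in OR8G5 to 3.97 CPM in OR10S1. On chromosome 23, where receptor genes flank the major histocompatibility complex in mammals, 10 genes had 0.446 ± 0.0897 CPM, from 0.0740 CPM in OR12D2 to 2.02 CPM in OR10C1. From the chromosome 7 cluster to this one, each cluster overlapped the next in its library values.

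The largest cluster by genes (chr15:46415657-51519656) contained 38 genes, among them class I families 51, 52 and 56, and had 0.353 ± 0.0654 CPM. Its highest window was that of OR51E2, a receptor also known from prostate and other tissues outside the nose, at 1.54 CPM. The 24 genes of the larger chromosome 7 cluster (chr7:41306146-43657045) had 0.203 ± 0.0561 CPM, from 0.0144 to 1.00 CPM within the single gene model of OR2T4. The 10 genes on chromosome 5 had 0.199 ± 0.0469 CPM, from 0 in OR6C68 to 2.21 CPM in OR9K2. These 3 clusters held 331 windows, and 8 of those reached 1 CPM in 4 libraries.

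The middle of the range was held by 4 further clusters. On chromosome 19 the mean was 0.411 CPM, from 0.352 CPM in OR3A1 to 0.611 CPM in OR1D5, and on chromosome 15 a cluster of 16 genes (chr15:79185057-81171056) had 0.297 CPM, from 0.0254 CPM in OR10AG1 to 2.10 CPM in OR4S1. On chromosome 10 the mean was 0.261 CPM, from 0.0311 CPM in OR4K14 to 1.01 CPM in OR6S1. On chromosome 3 it was 0.232 CPM, with both the highest (0.705 CPM) and the lowest window (0.0283 CPM) in OR10J3.

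The other 6 clusters had few genes and low means. They included 3 genes on chromosome 28 (0.218 CPM, from 0.166 in OR5AS1 to 0.258 in OR5L2) and 4 genes on chromosome 1 (0.182 CPM, from 0.129 in OR5K3 to 0.226 in OR5K1). Chromosome 15 held 2 such clusters, at 0.175 CPM (0.0754 in OR10A6 to 0.255 in OR5P3) and at 0.173 CPM (0.0934 in OR5M9 to 0.379 in OR4C15). A cluster on chromosome 7 had 0.174 CPM, with both ends of its range, 0.0705 and 0.367 CPM, in OR7G1. On chromosome 8 the 3 windows had 0.110 ± 0.0796 CPM and ran from 0.0861 CPM in OR13C3 to 0.141 CPM in OR13F1. The libraries of these clusters overlapped throughout.

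In 12 of the 20 clusters the receptor windows had a higher mean than their own neighbours, in 10 of these in all 8 libraries, while 7 clusters were below their neighbours in all 8. Leaving out the neighbours over 10 CPM gave 13 clusters above. The cluster of OR10V1 (1.90 CPM) lay above neighbours at 0.823 CPM and the chromosome 29 cluster (0.525 CPM) above neighbours at 0.259 CPM. On the other side, the cluster of OR6Q1 (0.650 CPM) lay below neighbours at 1.20 CPM, and below 0.824 CPM without those over 10 CPM. Its 6 coding windows alone had 1.84 CPM and were above the neighbours in 8 of 8 libraries. The chromosome 28 cluster had neighbours at 3.66 CPM through the stacked window named above, and at 0.136 CPM without it and its partner.

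**Figure D4:**
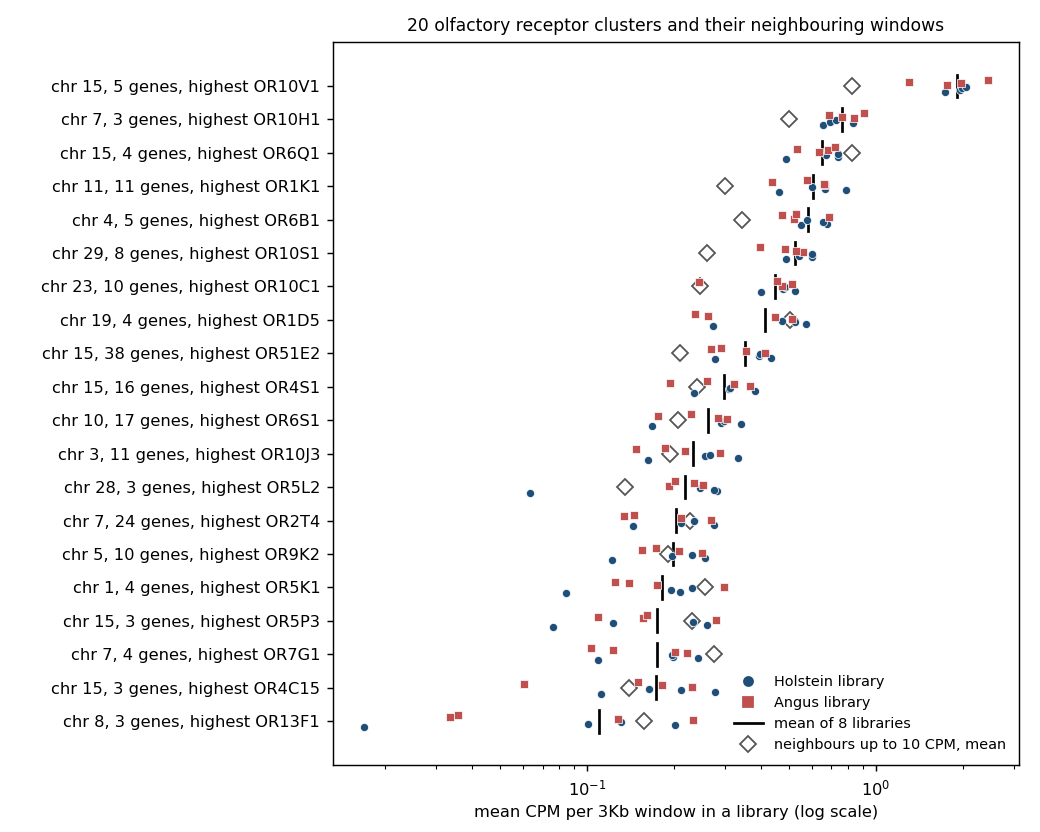
Mean CPM per 3Kb window (horizontal axis, log scale) in each library for the 20 clusters, ordered by the mean of 8 libraries (vertical bars). Circles are Holstein libraries, squares Angus libraries and open diamonds the mean of neighbouring windows of up to 10 CPM; the top cluster, on chromosome 15, has 1.90 CPM and the lowest, on chromosome 8, 0.110 CPM.

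Subfamilies, which share sequence and usually location, were compared by the coding windows of their genes. Of the 18 subfamilies with at least 3 genes, OR4D had the highest median over genes, 0.931 CPM, with 5 genes between 0.439 and 2.39 CPM on chromosomes 15, 19 and 29. OR1J followed with 0.474 CPM and OR2T with 0.368 CPM over 8 genes. The lowest were OR4K, with a median of 0.159 CPM over 5 genes on chromosome 10, and OR6C, with 0.0638 CPM over 7 genes on chromosome 5. The 7 OR6C genes lay between 0.0238 and 0.163 CPM, so that the whole OR6C range was below the whole OR4D range. Genes of a subfamily are copies of each other and mostly neighbours, and are not independent.

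The comparison of class I and class II receptors depended on the windows and the summary used. The 49 coding windows of the 33 class I genes had 0.367 ± 0.0623 CPM and the 243 coding windows of the 171 class II genes had 0.463 ± 0.0738 CPM (SD, n = 8). Class I was the lower in 8 of 8 libraries, with a ratio of 0.793 ± 0.0588. With the median window in place of the mean, class I was the higher in 6 of 8 libraries, and the medians of the window means were 0.268 and 0.258 CPM. Over all windows of a class, coding or not, the order was reversed: the 59 class I windows had 0.359 ± 0.0678 CPM and the 601 class II windows 0.310 ± 0.0599 CPM, a ratio of 1.16 ± 0.0919 with class I the higher in 8 of 8 libraries. The level of 1 CPM in 4 libraries was reached by 21 of 243 class II coding windows and by 3 of 49 class I coding windows.

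Receptor genes in gene-rich surroundings had higher levels. For each gene, the windows within 100 windows on either side that carried the symbol of another gene, LOC names and receptors left out, were counted. The 65 genes with none had a median of 0.213 CPM in their coding windows, the 63 genes with 1 to 20 had 0.309 CPM, the 54 genes with 21 to 60 had 0.305 CPM and the 22 genes with 61 to 201 had 0.534 CPM. Spearman's correlation over the 204 genes was 0.31, and it was -0.15 with the number of receptor windows nearby, LOC names included. These are descriptions across genes that share libraries, clusters and base composition.

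The breeds were then compared window by window with edgeR's likelihood-ratio test, Benjamini-Hochberg adjustment over all 115360 windows that passed the CPM filter, and a DMR defined by FDR < 0.1 and FC ≥ 2. The receptor windows showed no DMR: 0 of the 29 windows tested (26 genes) were called, beside 267 DMR among all windows tested (0.231%). On chromosomes 1 to 29 alone, 102 of 110561 windows tested were called (0.0923%). The authors reported fewer such regions under the same FDR and FC limits. At an unadjusted p below 0.05 there were 2 receptor windows, beside 4.94% of all windows. The quasi-likelihood test also called 0 of the 29, beside 0.122% of all windows, with 2 receptor windows at an unadjusted p below 0.05 (background 4.47%). DESeq2 called 0 of the 29 as well (background 0.123%), again with 2 at an unadjusted p below 0.05 (background 3.29%). At a background of 0.231% or 0.0923%, a count of 0 among 29 windows is no result about the receptors.

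The size of the differences was bounded nevertheless. Log2 fold changes of Holstein over Angus lay between -0.47 and 0.26, with a median of -0.07 and standard errors of 0.16 to 0.27, and 16 windows were lower and 13 higher in the Holstein libraries. The 95% intervals of 29 of 29 windows lay within a 2-fold change in either direction, with bounds from -0.86 to 0.75, and 27 of them included 0. The 29 windows held between 187 and 1086 reads over the libraries.

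The lowest p belonged to OR10H1, a class II receptor gene on chromosome 7 (chr7:8268446-8271445, minus strand, coding exon). It had 1.87, 1.90, 1.55 and 1.86 CPM in Holstein 1 to 4 and 2.06, 2.26, 2.01 and 2.57 CPM in Angus 1 to 4. In CPM each Angus library was above each Holstein library, with means of 2.23 ± 0.252 and 1.80 ± 0.164 CPM. This holds only without TMM scaling. Divided by the TMM factors (0.817 in Holstein 1, 0.952 in Angus 1), the value of Holstein 1 lies above that of Angus 1. The log2 fold change was -0.47 ± 0.18 (SE) by edgeR's likelihood-ratio test, which uses TMM scaling, and the adjusted p was 0.626, so the window did not pass.

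The other window was the first of OR9Q2 (chr15:82725457-82728456), with 1.16 ± 0.251 CPM in the Holstein and 1.49 ± 0.462 CPM in the Angus libraries. Its log2 fold change was -0.45 ± 0.21 and its adjusted p by edgeR was 0.886. The next window of OR9Q2 (chr15:82728457-82731456), which is among the 10 highest, had a log2 fold change of -0.25 ± 0.16, and its breeds overlapped. The 2 windows of this gene are adjacent and are not independent measurements.

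Class I genes supplied 3 of the 29 windows. OR51E2 (chr15:50940657-50943656) had 1.82, 1.21, 1.89 and 1.77 CPM in the Holstein libraries by number and 1.33, 1.7, 1.18 and 1.39 CPM in the Angus libraries, with a log2 fold change of 0.10 ± 0.21. OR52B2 (chr15:47490057-47493056) had 1.32 ± 0.260 against 1.12 ± 0.223 CPM and OR51D1 (chr15:51021657-51024656) 1.20 ± 0.136 against 0.986 ± 0.249 CPM. The breeds overlapped in all 3 windows. A gene outside the clusters, OR2AT4 (chr15:55102557-55105556), is known for its expression in skin keratinocytes in humans and was picked, like OR52B2 and OR51D1, after its values were seen. It had 1.21 ± 0.191 CPM in the Holstein and 1.35 ± 0.332 CPM in the Angus libraries, and a log2 fold change of -0.29 ± 0.20 whose 95% interval reached from -0.69 to 0.11.

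**Figure D5:**
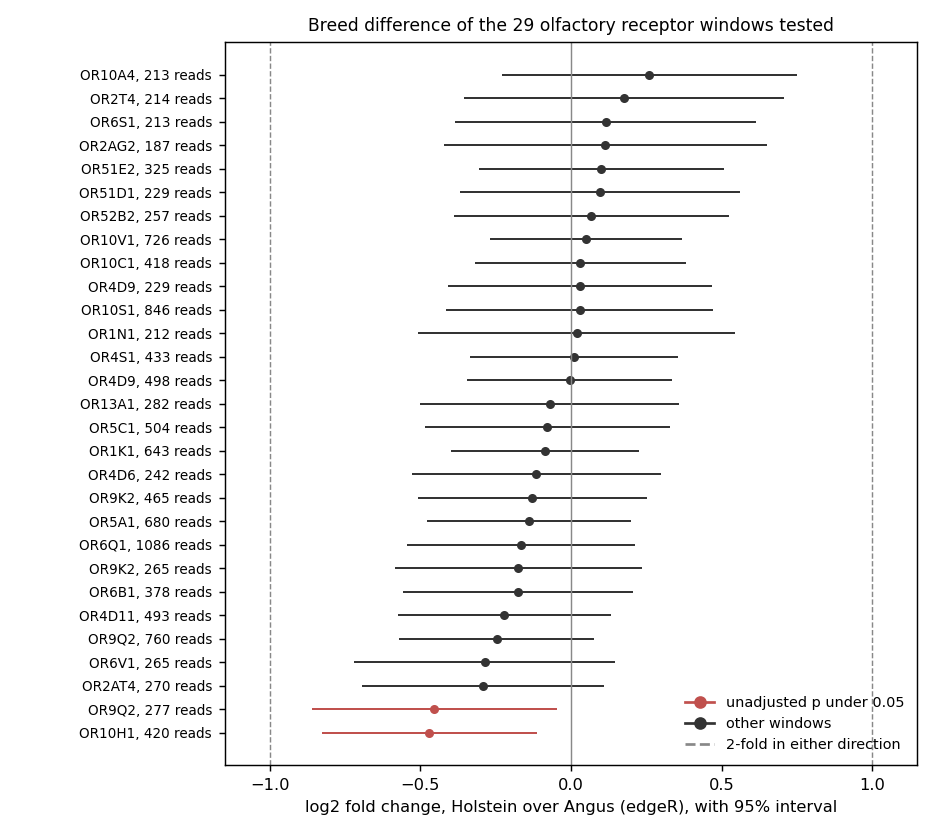
Log2 fold change of Holstein over Angus by edgeR (horizontal axis) with its 95% interval for the 29 receptor windows tested, ordered by value and labelled with the gene and the reads over 8 libraries. The 2 coloured windows, OR10H1 and OR9Q2, have an unadjusted p under 0.05; no interval reaches the dashed lines at a 2-fold change.

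Most receptor windows were too shallow for that test. Without the CPM filter, 659 receptor windows had a read and 0 were called, beside a background of 0.102%. At an unadjusted p below 0.05 there were 33 (5.01%) beside a background of 4.55%, with 16 higher in the Holstein and 17 in the Angus libraries. The median standard error was 0.49, so that differences of less than 2-fold were mostly not detectable in single windows. Larger differences also went uncalled: 51 receptor windows had a fold change of at least 2, and the lowest adjusted p by edgeR was 0.289.

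Windows with at least 40 reads were searched for breeds that did not overlap in CPM. TMM scaling was not applied here or in the background shares, and some of these windows can overlap with it. This was the case in 6 of 346 receptor windows (1.73%), beside 1.23% of all windows of chromosomes 1 to 29 with as many reads. In 4 of them the Holstein libraries were higher (background 1.11%) and in 2 the Angus libraries (background 0.124%). The counts are too small to be read against these shares.

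Among the windows higher in Holstein libraries was a window of OR2T4 (chr7:43450046-43453045, no coding exon), with 0.354, 0.390, 0.341 and 0.535 CPM in Holstein 1 to 4 and 0.140, 0.174, 0.101 and 0.161 CPM in Angus 1 to 4. The others were a window of OR5B2 (chr15:82887457-82890456), with 0.371 ± 0.193 against 0.118 ± 0.0810 CPM, a window of OR10J3 (chr3:10440010-10443009), with 0.841 ± 0.175 against 0.570 ± 0.0947 CPM, and OR1D5 (chr19:24468275-24471274), with 0.781 ± 0.158 against 0.442 ± 0.0882 CPM. OR1D5 was the only one of the 4 with a coding exon in the window. Higher in Angus libraries were OR10H1 and a window of OR10AG1 (chr15:79830057-79833056), with 0.369 ± 0.0630 against 0.162 ± 0.0440 CPM. In the fit without the CPM filter, the adjusted p of these 6 windows by edgeR was between 0.594 and 1.

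Per gene, the reads of all windows of a name were summed. The same test called 0 of 44 receptor genes, beside 14 of 19372 genes (0.0723%), and no receptor gene had an unadjusted p below 0.05 (0 of 44, beside 1.97% of all genes). The quasi-likelihood test called 0 of 44 (background 0.0%, and 1.78% at an unadjusted p below 0.05), and DESeq2 called 0 of 44 (background 0.0361%, and 1.44% at an unadjusted p below 0.05). Without the CPM filter 0 of 204 genes were called (background 0.126%), and 6 had an unadjusted p below 0.05 (background 2.79%).

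The mean level of the family did not separate the breeds. It was 0.328 ± 0.0663 CPM in the Holstein and 0.300 ± 0.0595 CPM in the Angus libraries (SD, n = 4 each), a ratio of 1.09. The neighbours had a ratio of 1.14 and all windows of chromosomes 1 to 29 a ratio of 1.05. With TMM-scaled library sizes the ratio of the receptor means was 0.979, on the other side of 1, and without Holstein 1 and Angus 3 it was 1.11.

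The other genes of the olfactory pathway were taken from a list of 23 symbols, of which 22 were found (a receptor kinase was listed under its current and its older symbol, and the files use the older, ADRBK2). They comprise the G-protein GNAL, the adenylate cyclase ADCY3, subunits of the cyclic nucleotide gated channel (CNGA2, CNGA4, CNGB1), the chloride channel ANO2, receptor trafficking proteins (RTP1, RTP2, REEP1) and regulators of receptor choice (LHX2, LDB1, EBF1, EMX2, KDM1A). Of their 774 windows, 149 were tested and 1 was called, beside 0.231% of all windows tested (0.0923% on chromosomes 1 to 29). That DMR lay in LHX2, a LIM-homeodomain factor of olfactory neuron development (chr11:95126785-95129784), and was lower in Holstein libraries, with a log2 fold change of -1.27 ± 0.23 and an adjusted p of 8.23e-05 by edgeR. LHX2 is not among the genes for which the authors listed a DMR.

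The reads in the LHX2 window numbered 20, 31, 65 and 40 for the Holstein cultures in order of number and 71, 83, 81 and 95 for the Angus cultures, or 1.48 ± 0.664 against 3.29 ± 1.21 CPM. Summed over its 7 windows, LHX2 had a log2 fold change of -0.52 and was not called (adjusted p = 0.433 by edgeR), and 0 of the 22 genes were called, beside 0.0723% of all genes tested, so that a count of 0 says nothing about these genes. The highest mean level in the list was that of OMP, the marker of mature olfactory neurons, with 4.27 CPM in its single window. ANO2 followed with 2.22 CPM per window and CNGA4 with 2.00 CPM.

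Other chemoreceptor families differed in level. Trace amine receptors (TAAR, 6 genes in 55 windows) had a mean of 0.221 ± 0.0586 CPM and bitter taste receptors (TAS2R, 13 genes in 18 windows) had 0.259 ± 0.107 CPM. By the mean, olfactory receptor windows were above the TAAR windows in 8 of 8 libraries and above the TAS2R windows in 7 of 8. By the median window they were above TAAR in 5 and below in 0 libraries. Against TAS2R the median window was above in 3 and below in 4 libraries, with the others tied. The sweet and umami receptor genes TAS1R1 and TAS1R2, with coding sequence spread over several exons, were higher, with 2.24 ± 0.295 CPM over 9 windows. The genes of these families with the highest mean level per window were TAS1R2 with 2.46 CPM, TAS1R1 with 1.82 CPM and TAS2R38, the receptor for phenylthiocarbamide, with 0.905 CPM. Of the chemoreceptor windows 8 were tested and 0 were called, which at a background of 0.231% is no result about them.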

How the data were processed

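The authors filtered reads on quality, aligned them to UMD v3.1 with NextGENe 2.3.4 and deposited, per library, raw read counts in consecutive 3Kb windows with the gene symbol and coding exon each window touches. The lowest, highest and average coverage of each window, which the authors left unscaled as a signal capped at the top, served here to find stacked reads.

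CPM was computed on the total over all windows, which was also the library size. The breeds were compared in R 4.3.3 with edgeR 4.0.16 (TMM, estimateDisp, likelihood-ratio test, breed as the only term) on windows, and on gene sums, that reached 1 CPM or more in 4 or more libraries. A DMR had FDR < 0.1 and FC ≥ 2. Standard errors are the log2 fold change over the root of the likelihood ratio. The test was run on counts simulated with a single common dispersion, for windows that passed the CPM filter. This check does not cover shallower windows or windows of other dispersion. Levels were summarised in Python 3.11.15, without p-values. Of the 660 receptor windows, 659 were 3000 bases long.

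The alternatives included DESeq2 1.42.0, the quasi-likelihood test, other library sizes, no CPM filter, the animal number as a block, other neighbourhoods and summaries, and leaving out libraries. The members, lists and tests were chosen with earlier results of these data known. Named windows followed a rule: called windows, the 10 highest and 5 lowest, the ends of each cluster, and those in which the breeds did not overlap. OR2AT4, OR52B2, OR51D1, the lower OR9Q2 window, the windows beside low OR10A4 and OR9K2 windows, the stacked neighbour and the window near OR6Q1 were named after their values were seen. No 2 libraries of a breed agreed within sampling noise (chi-square per window 8.60 to 39.9 over 12 pairs). The p-values measure the spread between cultures. RNA-Seq libraries were not analysed here.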

Additional observations from a re-analysis of the deposited data

Results flagged for a closer look

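Among 84 groups of 4 libraries, 4 had a library set apart from the other 3 by Dixon's criterion, which chance does in about 1 of 20 groups. The count is near that share and is no result by itself, and the groups share libraries. Holstein 1 was the lowest of its breed in 3 of the 4 groups set apart. The neighbours of receptor windows had 0.263 CPM in Holstein 1 against 0.381 CPM in the next library. The chromosome 28 cluster from chr28:2555765 had 0.0632 CPM in Holstein 1 against 0.246 CPM in the next. The window of OR6Q1 had 4.10 CPM in Holstein 1 against 5.38 CPM in the next. In the window of OR10H1 the library set apart was Holstein 3, with 1.55 CPM against 1.86 CPM in the next. These values are CPM without TMM scaling, and Holstein 1 had a low TMM factor (0.817, against 1.22 in Holstein 4). Divided by the TMM factors, Holstein 4 lies lowest of its breed for the neighbours and for OR6Q1. Holstein 1 stays lowest in the chromosome 28 cluster, and Holstein 3 in OR10H1. The part of Holstein 1 in these values was not tested.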

How the results depend on the processing

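No receptor window or gene was called under any alternative run: the quasi-likelihood test, DESeq2, other size factors, total counts, no CPM filter, chromosomes 1 to 29 alone, and leaving out each library in turn (0 to 0 called windows and 0 to 0 called genes). With total counts alone the median log2 fold change of all windows moved by over 0.1, to 0.14, and that of receptor windows was 0.08. With the animal number as a replicate block, 0 windows and 0 genes were called. The numbers do not pair the cultures: the deviations of same-numbered libraries correlated at -0.017 on average (-0.211 to 0.109), against 0.0089 for other pairs.

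The ratio of receptor to neighbour means, 0.933, was 0.442 with 30 windows on either side and 1.10 by the median window. It was 1.33 for coding windows, 1.40 without the long gene models and 1.18 without neighbours over 10 CPM, which were chosen after seeing the data. Its values without single libraries lay between 0.922 and 0.942. The class I to class II ratio, 0.793, was 1.04 by the median window and 0.785 to 0.811 without single libraries. The breed ratio of the family mean, 1.09, lay between 1.01 and 1.20 without single libraries. Of the 20 clusters, 9 lay above their neighbours with 30 windows on either side in place of 12, and with a limit of 500 kb it was 15 of 23. The depth limits the rest: the median standard error of a receptor window without the CPM filter was 0.49 on the log2 scale.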
